A study of Mus musculus with 1 sample.

Results

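Red blood cells made up 390 of the 10129 retained barcodes (3.85%, exact Clopper-Pearson 95% interval 3.48 to 4.24%) in a single-cell RNA library of mouse pancreas. They were picked by their globin mRNA. A barcode counted as a red blood cell where Hba-a1, Hba-a2, Hbb-bs and Hbb-bt, the genes for the adult alpha and beta chains of hemoglobin, together gave at least 50% of its unique molecular identifiers (UMIs, each standing for 1 captured mRNA molecule). Retained barcodes had over 800 and under 10000 UMIs and under 15% of UMIs from mitochondrial genes. The globin counts chose these cells, so that globin levels are given below as a description.

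The mice were 2 weeks old, had the genotype Scap f/f, and gave 5 to 6 pancreata that were processed as a single library. These animals carry a floxed Scap gene and no Cre, and are labelled wildtype. The tissue was digested with collagenase P, strained, depleted of dead cells and run on the 10x Genomics 3′ v3.1 chemistry. The deposited table held 11789 barcodes, each with at least 500 UMIs, and 32285 genes, and no barcode occurred in duplicate. With 1 library there was no replicate, no test between groups was possible, and cells of a library are not replicates of a condition. The intervals below are exact 95% intervals and cover counting error only. No second genotype was analysed here, and nothing below compares genotypes.

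Red blood cells carry oxygen on hemoglobin, a tetramer of alpha and beta chains that each hold a heme group with an iron atom. Their precursors divide in the marrow, and in young mice also in the spleen and liver, while they take up iron, make heme and build a membrane skeleton of spectrin and ankyrin. The precursor then expels its nucleus. The resulting reticulocyte enters the blood with its remaining mRNA, ribosomes and mitochondria, which it clears by ubiquitin tagging and autophagy as it matures. Mature red cells in mammals have no nucleus and make no new mRNA.

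The 390 cells were small libraries. Their UMI numbers ran from 807 to 8223 with a median of 1435.5 (quartiles 1170 and 1924), against a median of 2543 in the other 9739 retained barcodes. The globin share ran from 50.3% to 96.0% with a median of 90.8%, and a median of 139 UMIs (45 to 3819) per cell was left without globin. With the 4 globin genes counted, a cell had a median of 100 genes (36 to 1442). The other barcodes had a median of 1287 genes. Summed over the 390 cells, 538863 of 641974 UMIs were globin and 103111 were not. These cells held 76.6% of all globin UMIs in the retained barcodes.

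**Figure D1:**
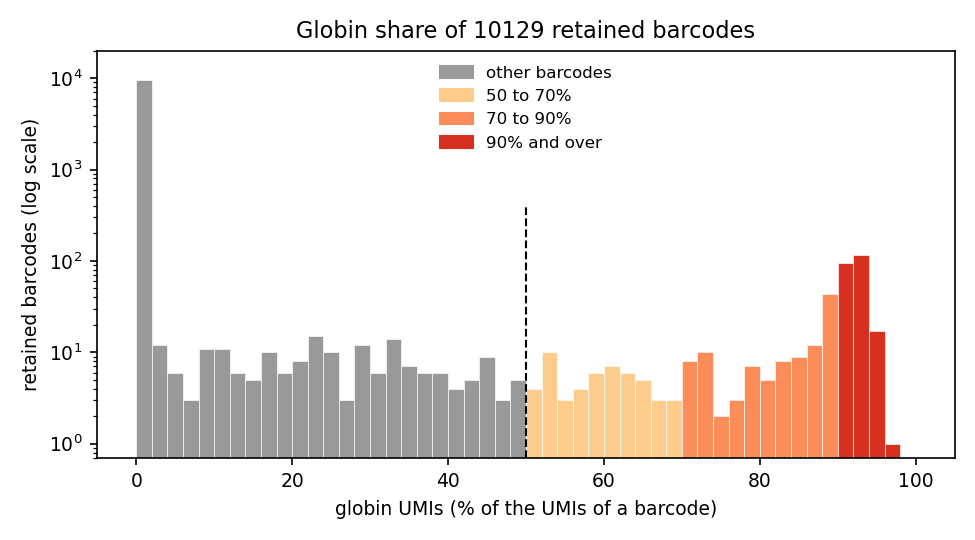
Number of retained barcodes (vertical axis, log scale) by globin share of their UMIs (horizontal axis, in steps of 2 percentage points), with the limit of 50% as a dashed line and the 3 globin ranges of red blood cells in colour. Most barcodes (9537) held under 0.5% globin, 231 red blood cells held 90% or more, and a thin band of 169 barcodes at 5 to 50% and 51 cells at 50 to 70% lies between them.

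The label was checked on genes that the choice of cells did not use. Alas2, which encodes the erythroid enzyme for the first step of heme synthesis, had at least 1 UMI in 275 of the 390 cells (70.5%). Bpgm, which makes the 2,3-bisphosphoglycerate that lowers the oxygen affinity of hemoglobin, had at least 1 UMI in 53.8%. In barcodes gated as T cells, which should lack both, the shares were 1.26% for Alas2 and 4.13% for Bpgm at a median of 2016 UMIs. After thinning every cell to 100 UMIs other than globin, which left out 105 shallower red blood cells, Alas2 was seen in 50.2% of 285 red blood cells and in 0 of 1113 gated T cells. A count of 0 there allows a share of up to 0.331%. Without thinning, Alas2 was seen in 70.6%, 79.6% and 66.2% of cells in the 3 globin ranges used below, from low to high. After thinning, the first of these shares was 21.6%. A UMI of Alas2 cannot tell a red blood cell alone from one caught with another cell, so that this check does not exclude mixed droplets. Alas2 was also seen in 8 of the 10 nearest barcodes under the globin limit. The range at 50 to 70% also carried transcripts of dividing precursors, and 11 of its 51 cells held a lymphocyte UMI. The name is used here for every cell that met the globin rule, which does not separate precursors, reticulocytes and mature red cells.

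The start regions of 4 of these genes are shown because the cells were chosen by Hba-a1 and Hbb-bs and checked by Alas2 and Bpgm. Each is the 150 bases before the RefSeq transcription start (GRCm38.p6), written 5′ to 3′ on the strand of the gene. Capitals mark every match on either strand to the 4 motifs CACCC (KLF-type factors), CCAAT (bound by NF-Y), GATA (GATA factors) and TATAA (the TATA box). No 2 of these matches overlap each other. Hba-a1 lies at chr11:32283522-32283671 (+), Hbb-bs at chr7:103827929-103828078 (−), Alas2 at chrX:150547267-150547416 (+) and Bpgm at chr6:34476206-34476355 (+).
Hba-a1: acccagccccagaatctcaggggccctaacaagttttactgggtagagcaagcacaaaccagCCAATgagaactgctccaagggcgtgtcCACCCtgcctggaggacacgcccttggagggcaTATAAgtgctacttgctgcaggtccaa
Hbb-bs: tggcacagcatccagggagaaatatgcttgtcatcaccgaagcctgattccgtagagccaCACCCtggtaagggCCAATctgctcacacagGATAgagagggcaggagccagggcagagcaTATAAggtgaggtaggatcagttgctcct
Alas2: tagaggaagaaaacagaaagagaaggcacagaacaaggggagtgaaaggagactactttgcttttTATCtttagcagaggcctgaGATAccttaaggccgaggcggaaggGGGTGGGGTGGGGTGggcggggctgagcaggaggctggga
Bpgm: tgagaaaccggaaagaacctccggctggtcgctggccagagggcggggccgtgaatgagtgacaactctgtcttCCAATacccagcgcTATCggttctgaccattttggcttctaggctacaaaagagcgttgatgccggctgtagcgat
The Hba-a1 window held CCAAT from base 88, CACCC from base 60 and TATAA from base 27 before the start. Hbb-bs held CACCC from base 90, CCAAT from base 76, GATA from base 59 and TATAA from base 29. Alas2 held GATA letters from base 65 and, on the other strand, from base 85, with CACCC on the other strand 3 times between bases 40 and 26. Bpgm held CCAAT from base 76 and GATA on the other strand from base 62. Such short motifs are common. GATA was found in 36.1% of 27025 windows of this length across genes, CACCC in 36.9%, CCAAT in 25.3% and TATAA in 14.7%. Of the 308 genes counted below as higher in red blood cells that had a window, 25.6%, 44.8%, 37.0% and 6.49% held them in that order. Over all 1179 compared genes with a window the shares were 24.1%, 43.0%, 30.7% and 10.8%. A match is a match of letters and not a bound site.

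Hbb-bs gave most of the globin UMIs. It held 300495 UMIs, which is 55.8% of the globin UMIs of these cells, with a lowest, median and highest number per cell of 302, 702.5 and 2080. Hba-a1 gave 102497 UMIs (19.0%), at 74, 202.5 and 1342 per cell. Hba-a2 gave 69295 UMIs (12.9%), at 31, 140.5 and 867 per cell, and Hbb-bt gave 66576 (12.4%), at 6, 160.5 and 552 per cell. All 4 genes were seen in every one of the 390 cells, and the per-cell ranges of the 4 genes overlapped. The paired genes are near copies, since Hba-a1 and Hba-a2 share 428 of 429 coding bases and Hbb-bs and Hbb-bt share 443 of 444. Right after the stop codon, 74 of 80 aligned bases are shared by the alpha pair and 61 of 82 by the beta pair, so that the split of reads within a pair is uncertain, and more so for the alpha pair.

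The globins of the embryo were not seen. Hba-x, Hbb-bh1, Hbb-bh2 and Hbb-y, chains of yolk sac red cells and their locus neighbours, had 0 of 641974 UMIs, which allows a share of up to 0.000575% each. The theta-like genes Hbq1a and Hbq1b had 7 UMIs in 6 cells and 21 UMIs in 19 cells. At 2 weeks of age the globin mRNA in these cells was thus that of the adult chains to the depth reached.

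Alpha UMIs were fewer than beta UMIs. Summed over cells there were 0.468 alpha-chain UMIs for each beta-chain UMI (0.465 to 0.471), although the protein pairs the chains evenly. Per cell, alpha chains made up 17.8% to 48.6% of globin UMIs with a median of 29.2%, so that no cell reached an even share. The ratio was 0.440 (0.432 to 0.447) in cells of 50 to 70% globin, 0.462 (0.457 to 0.467) at 70 to 90% and 0.477 (0.473 to 0.480) at 90% and over. It moved further with depth. The alpha share was 27.8% in the shallowest tertile of the cells by UMI number (807 to 1247), 29.0% in the middle tertile and 35.6% in the deepest tertile (1676 to 8223). UMIs here are counted at the 3′ ends of transcripts, and whether 1 mRNA of each chain yields the same number of UMIs was not tested.

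**Figure D2:**
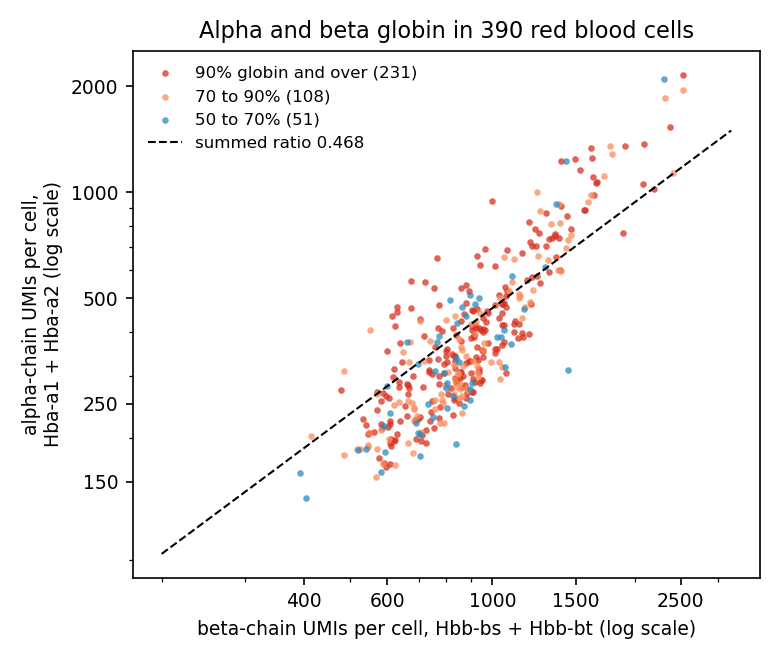
Alpha-chain UMIs (Hba-a1 plus Hba-a2, vertical axis, log scale) against beta-chain UMIs (Hbb-bs plus Hbb-bt, horizontal axis, log scale) in each of the 390 red blood cells, coloured by globin range, with the summed ratio of 0.468 as a dashed line. Of the 130 cells of the shallowest tertile by UMI number 109 lie under the line, of the middle tertile 105 and of the deepest tertile 45.

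The split within each pair also varied from cell to cell. Hba-a1 made up 46.9% to 83.0% of alpha UMIs with a median of 59.1%, and the summed ratio of Hba-a1 to Hba-a2 was 1.48 (1.46 to 1.49). It was 1.81 (1.76 to 1.87) in the cells of 50 to 70% globin, against 1.42 and 1.45 in the other 2 ranges. Hbb-bt, the minor adult beta gene, made up 1.45% to 33.6% of beta UMIs with a median of 18.0%. It was under 5% in 4 cells and at 5 to 10% in a further 19.

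Outside globin, genes were set against the other 9739 retained barcodes as globin-free CPM, the UMIs of a gene summed over cells per 1000000 UMIs other than the 4 globins. Of 1524 genes with a mean level of at least 100 CPM over both groups, 389 (25.5%) were at least 2-fold higher in red blood cells and 501 (32.9%) at least 2-fold lower, with a median fold of 0.777. The scale matters here, because globin takes most UMIs of these cells. On the scale of all UMIs, where a gene is given per 1000000 UMIs with globin included, every fold shrinks by the factor 0.161, any fold under 6.19 turns to below 1, and of the same 1524 genes 142 were at least 2-fold higher and 1209 at least 2-fold lower. The median shifts from −0.36 to −2.99 on the log2 scale. The filter on the mean also bears on the counts. A gene at or under 66.7 CPM in the other barcodes can reach a mean of 100 CPM only by being at least 2-fold higher in red blood cells, which held for 236 of the 389 higher genes, and the reverse held for 178 of the 501 lower ones. Of the 1110 genes that could go either way, 153 were at least 2-fold higher and 323 lower. Gene groups below are therefore given by the direction of all their listed members with no filter, whatever the size of the difference. For most groups the members that could go either way and those below 1 on the scale of all UMIs are also given. With no filter, 16.5% of 22787 genes with a UMI in either group stood higher in red blood cells and 83.5% lower. Of the 9069 genes with a UMI in red blood cells, 41.6% stood higher and 58.4% lower. A single UMI in a median red blood cell equals 7194 globin-free CPM, and 3 UMIs over all 390 cells equal 29.1 CPM.

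Of the 25 genes with the largest folds 18 were on the erythroid lists, which were chosen with earlier results of these data known, and all 25 could pass the filter only by being higher. Slfn14, which encodes a ribosome-bound endoribonuclease of red cell and platelet precursors, came first with 38 UMIs and a fold of 1392. Apol11b had 21 UMIs and a fold of 1025. Alas2 stood at 6052 CPM (5586 to 6546) against 6.95, an 870-fold difference (743 to 1023). Epb42, Trim10, Rsad2, Kel, Slc4a1, Tspo2, Bpgm, Car2, Rhag, Icam4, Rhd, Slc25a37 and Hemgn were also among the 25, at 191- to 558-fold. The list also held genes without an erythroid role in the lists used here, such as Syt14 (366-fold, 50 UMIs) and Rec114 (277-fold, 69 UMIs). Genes of connective tissue were among the 15 smallest folds. Adamts5, which encodes a matrix protease, and Bgn, which encodes the proteoglycan biglycan, had 1 UMI each in red blood cells. Cdkn1c, an imprinted cell cycle inhibitor, had 0 UMIs there and 15091 in the other barcodes (17.2-fold lower if 3 UMIs were there).

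**Figure D3:**
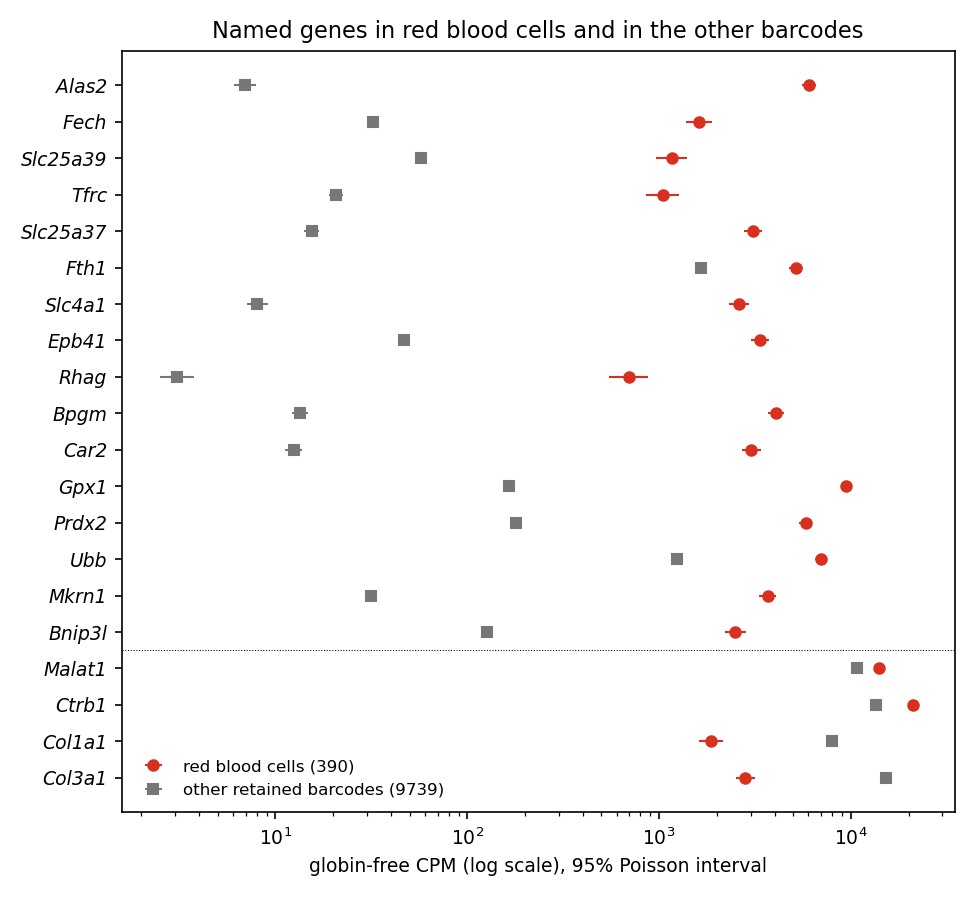
Globin-free CPM (horizontal axis, log scale, with 95% Poisson intervals) of 20 genes in the 390 red blood cells (red circles) and in the other 9739 retained barcodes (grey squares), with erythroid genes over the dotted line and nuclear, exocrine and collagen genes under it. The erythroid genes are separated by folds from 3.11 (Fth1) to 870 (Alas2), and Col1a1 and Col3a1 lie on the other side.

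Heme synthesis genes stood higher in red blood cells. With no filter all 12 listed genes had more CPM there than in the other barcodes. Of the 9 that passed the filter, 8 could pass only by being higher. Fech, which inserts iron into the ring as the last step, stood at 1620 against 32.2 (50.3-fold, 42.5 to 59.4). Slc25a39, which carries glutathione into mitochondria, was 20.3-fold higher. Tmem14c, which moves a heme precursor across the inner mitochondrial membrane, had the smallest fold at 3.05 and fell below 1 on the scale of all UMIs. It was the single member that could go either way. The other 8 stayed over 2-fold on that scale. Uros, Ppox and Slc25a38 had too few UMIs to compare.

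Of 16 listed iron genes 10 stood higher with no filter and 6 lower (Steap3, Slc40a1, Ireb2, Aco1, Hmox1 and Flvcr1). Of the 9 that passed the filter, Snx3, Fth1, Ftl1 and Blvrb could go either way, and all 4 were at least 2-fold higher. Slc25a37, the mitochondrial iron importer mitoferrin, stood at 3094 CPM against 15.5 (200-fold, 173 to 231). Tfrc, the transferrin receptor that brings iron into precursors, stood at 1047 against 20.7 (50.6-fold, 40.9 to 62.2). Of its 108 UMIs 1 was in the 231 cells of 90% globin and over. With the globin limit set at 90%, the fold of Tfrc was 1.51 and the call was lost. The red blood cells under that limit then counted among the other barcodes. The ferritin chains Fth1 and Ftl1, which store iron in most cell types, were 3.11-fold and 5.43-fold higher. Snx3, Fth1, Ftl1 and Iscu fell below 1 on the scale of all UMIs, and the other 5 stayed over 2-fold. Hmox1 and Aco1 had 0 UMIs in red blood cells.

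Of 25 listed genes of the membrane and its skeleton 24 stood higher with no filter, and Slc2a1, a glucose transporter, had 0 UMIs in red blood cells. Of the 18 that passed the filter, 17 could pass only by being higher. Slc4a1, the anion exchanger band 3, stood at 2609 against 8.04 (324-fold, 272 to 387), and Epb42, which ties band 3 to the skeleton, was 558-fold higher. The blood group genes Kel, Rhag and Rhd were 359-, 227- and 201-fold higher, and protein 4.1 (Epb41) was 72.5-fold higher. Cd47, which marks cells as self for macrophages and is found on most cell types, was 2.28-fold higher. It was the single member that could go either way and the single one below 1 on the scale of all UMIs.

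Listed enzymes of the late red cell went in both directions. Of the 6 that passed the filter, 4 were at least 2-fold higher and could pass only by being so. Of the other 2, which could go either way, 0 were at least 2-fold higher and 1 (Gapdh) lower. Bpgm stood at 4083 CPM against 13.4 (305-fold, 265 to 350). Car2, the carbonic anhydrase that speeds carbon dioxide transport, stood at 3026 against 12.4 (243-fold, 209 to 283). Nt5c3, which encodes a pyrimidine nucleotidase that disposes of RNA breakdown products, was 48.3-fold higher. Of the 15 listed genes 6 stood higher with no filter and 9 lower, and the 9 were genes of glycolysis and lactate formation (Pklr, Aldoa, Gapdh, Pgk1, Pgam1, Eno1, Tpi1, Gpi1 and Ldha). Gapdh stood at 126 CPM against 294 (0.428-fold) and Ldha at 67.9 against 133, and both were below 1 on the scale of all UMIs. Of 12 antioxidant genes 8 stood higher with no filter and 4 lower (Sod1, Selenow, Nfe2l1 and Nfe2l2), and 4 of the 7 that passed the filter could go either way. Gpx1, a glutathione peroxidase, reached 9456 CPM against 165 (57.4-fold) and Prdx2, a peroxiredoxin abundant in red cells, 5809 against 180 (32.2-fold). Selenow was lower at 0.431-fold, Gpx4 stood at 1.74-fold, and both were below 1 on the scale of all UMIs.

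Of 23 listed genes for the clearance of organelles and proteins 21 stood higher with no filter. Of the 15 that passed it 8 could go either way, and 7 of these were at least 2-fold higher. Ubb, a ubiquitin precursor, stood at 7002 CPM against 1239 (5.65-fold, 5.24 to 6.08), and was below 1 on the scale of all UMIs. Mkrn1, a ubiquitin ligase, stood at 3695 against 31.4 (117-fold, 104 to 132). Trim10, a RING-finger protein of terminal erythroid cells, was 513-fold higher, and Ube2l6 and Ube2o, ubiquitin-conjugating enzymes, were 100- and 49.5-fold higher. Gabarapl2 and Map1lc3b, which coat autophagosomes, stood at 1620 and 1872 CPM against 80.9 and 130, and Bnip3l, the receptor that hands mitochondria to them, was 19.7-fold higher.

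Of 36 other late erythroid genes 30 stood higher with no filter and 6 lower (Bnip3, Strbp, Clic4, Marcks, Smim1 and Stk38l). Of the 28 that passed it 9 could go either way, of which 4 were at least 2-fold higher, 1 lower and 4 neither. On the scale of all UMIs, 14 stayed at least 2-fold higher and 8 were below 1 (Add1, Ybx3, Pim1, Marcks, Btg2, Hdgf, Clic4 and Klf3). Tent5c, which lengthens poly(A) tails, was 137-fold higher, Isg20, an exonuclease, 165-fold and Xpo7, an exportin, 41.4-fold. Marcks, a substrate of protein kinase C, stood at 0.145-fold. Of 17 erythroid transcription factors 12 stood higher with no filter and 5 lower (Ldb1, Bcl11a, Gata2, Myb and Cited2). The 2 that passed it, Lmo2 (16.0-fold) and Foxo3 (6.92-fold), could pass only by being higher, and both were above 1 on either scale. The master regulators Gata1 and Klf1 had 3 and 14 UMIs in all 390 cells and could not be compared. Of 11 interferon response genes 6 stood higher with no filter and 5 lower. Isg20 and Isg15 (57.0-fold) were also 2 of the 6 that passed it and could pass only by being higher. Of the 4 that could go either way 0 were at least 2-fold higher, and B2m and Ifitm3 were lower at 0.245- and 0.436-fold. The 4 of these 6 genes other than Isg20 and Isg15 were below 1 on the scale of all UMIs. Scap itself had 0 UMIs in red blood cells, as had 4 others of the 10 listed genes of the Scap and SREBP axis, and none of the 10 passed the filter. All 10 stood lower with no filter, against 83.5% lower over all genes. Their 9 UMIs came to 87.3 CPM (39.9 to 166) against 362 in the other barcodes.

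The red blood cells were then split by globin share into 51 cells at 50 to 70%, 108 at 70 to 90% and 231 at 90% and over. These are ranges of a measured share and not types. Globin UMIs per cell were close in the 3 ranges, with medians of 1138, 1159 and 1241. Other UMIs were not, with medians of 772, 217 and 105 per cell. The order of the last values follows in part from the way the ranges were cut, and so does a fall per cell of any group of other genes. Levels are therefore given both as globin-free CPM and as mean UMIs per cell. Of 634 genes with a mean of at least 200 CPM and at least 3 UMIs over the outer ranges, 139 (21.9%) were at least 2-fold higher in the range of 90% and over than in that of 50 to 70%, and 242 (38.2%) at least 2-fold lower, with a median fold of 0.769. Here the level under which a gene could pass only by differing is 133 CPM, which held for 157 of the lower and 30 of the higher genes. Of the 447 that could go either way, 109 were at least 2-fold higher and 85 lower. With no filter, 62.8% of 8220 genes stood lower at 90% and over and 37.2% higher. Genes with 0 UMIs on one side enter at the fold that 3 UMIs there would give.

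Genes of dividing cells had most of their UMIs in the lowest range. Mki67, a proliferation marker, had 54 UMIs in the 51 cells at 50 to 70%, 5 in the 108 cells at 70 to 90% and 0 in the 231 cells at 90% and over. Hmgb2, a chromatin protein of cycling cells, had 179, 10 and 1 UMIs, and the replication-dependent histone gene Hist1h2ap had 340, 11 and 2. At least 1 UMI of Mki67, Top2a, Birc5, Cenpf or Ccnb1 was seen in 32 of 51 cells (62.7%, 48.1 to 75.9%), 6 of 108 (5.56%) and 1 of 231 (0.433%). At least 3 UMIs were seen in 24 of 51, 2 of 108 and 0 of 231, where a count of 0 allows up to 1.58% of cells. These shares are at unequal numbers of globin-free UMIs. After thinning to 100 globin-free UMIs per cell, Mki67 was seen in 7.84% (2.18 to 18.9%), 0.962% and 0% of cells, the last from 0 of 130 cells, which allows up to 2.80%. Without thinning its shares were 41.2%, 4.63% and 0%.

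Of the 16 genes of the precursor list 14 stood higher than in the other barcodes with no filter, and Cd34 and Cd44 stood lower. Of the 12 that passed it 6 could go either way, of which Hmgb2 and Top2a were at least 2-fold higher and Cd44 lower. On the scale of all UMIs 4 of the 12 were above 1 and 8 below it (Cd34, Top2a, H2afz, Hmgb2, Stmn1, Tubb5, Cd44 and Itga4), of which 5 were at least 2-fold lower. Between the outer ranges 13 of the 16 stood lower at 90% and over with no filter, against 62.8% over all genes. Kit, Cd34 and Cd44 stood higher. Of the 9 that passed it H2afz and Tubb5 could go either way, and both were at least 2-fold lower. The list stood at 11.9, 0.898 and 0.165 UMIs per cell in the 3 ranges. Markers of lymphocytes moved in the same direction. The list of 9 T and B cell genes stood at 919 (659 to 1247), 160 and 183 CPM, or 0.804, 0.046 and 0.022 UMIs per cell. Of its 41 UMIs in the lowest range 2 were in cells with a UMI of the 5 cycling genes above. Without the 11 cells of that range that held a lymphocyte UMI, an alternative chosen after seeing the data, 30 of 40 cells (75%, 58.8 to 87.3%) had a UMI of these cycling genes.

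Tfrc had 63, 44 and 1 UMIs in the 3 ranges. Alad, Cpox and Abcb10, the first of which makes porphobilinogen and the second of which acts late in the pathway, had 27, 36 and 34 UMIs at 50 to 70% and 0 each at 90% and over. Of 12 heme genes 9 stood lower at 90% and over with no filter, and Alas2, Fech and Slc25a39 higher on the CPM scale, against 62.8% lower over all genes. The 6 that were at least 2-fold lower could pass the filter only by being so. Alas2 had 108, 208 and 308 UMIs, which is 2.12, 1.93 and 1.33 UMIs per cell but 2420, 6676 and 11268 globin-free CPM. Fech stood at 1165, 2183 and 1719 CPM, and Slc25a39 at 627, 1284 and 1902. Alas2 and Slc25a39 were thus higher at 90% and over per globin-free UMI, while both were lower there per cell, Slc25a39 at 0.549 and 0.225 UMIs in the outer ranges.

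Of 25 membrane genes 22 stood lower at 90% and over than at 50 to 70% with no filter, against 62.8% over all genes. Epb41 and Cd59a stood higher. Of the 17 that passed the filter 8 could go either way, of which 4 were at least 2-fold lower and 1 higher. The list fell from 20.4 to 8.89 and 1.44 UMIs per cell. Slc4a1 stood at 2.20, 1.22 and 0.108 UMIs per cell and at 2510, 4237 and 915 CPM. Rhd had 68, 17 and 0 UMIs, Rhag 40, 32 and 0, and Kel 55, 46 and 2. Epb41 stood at 1546, 5585 and 3841 CPM, and on the per-cell scale it stood at 1.35, 1.61 and 0.455.

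Of 17 erythroid transcription factors 13 stood lower at 90% and over with no filter, against 62.8% over all genes. Myb and Cited2 stood higher. Lmo2 and Foxo3, the 2 that passed the filter, were at least 2-fold lower, and Foxo3 could pass only by being so. Iron, antioxidant and late erythroid genes were mixed on the CPM scale. With no filter, 6 of 16 iron genes stood higher at 90% and over and 8 lower, 5 of 12 antioxidant genes higher and 6 lower, and 12 of 36 late erythroid genes higher and 23 lower. Over all genes 62.8% stood lower, which is near the share of the late erythroid genes. Of the members that could go either way, 3 of 8 iron genes (Iscu, Ftl1 and Ncoa4) were at least 2-fold higher and 0 lower, 1 of 4 antioxidant genes higher and 0 lower, and 9 of 14 late erythroid genes higher and 2 lower. Per cell the iron genes stood at 15.3, 6.19 and 2.42 UMIs in the 3 ranges, the antioxidant genes at 12.5, 7.07 and 1.90, and the late erythroid genes at 15.6, 10.4 and 2.52. All globin-free UMIs fell as well, with medians of 772, 217 and 105 per cell. The fall of these groups per cell thus follows in part from the cut and is not a result about them.

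Bpgm, Mkrn1 and Gabarapl2 had close numbers per cell in the outer ranges. Bpgm stood at 0.765 UMIs per cell (0.544 to 1.05) at 50 to 70%, 1.59 (1.36 to 1.85) at 70 to 90% and 0.909 (0.790 to 1.04) at 90% and over. Mkrn1 stood at 0.686 (0.478 to 0.954), 1.55 (1.32 to 1.80) and 0.775 (0.666 to 0.897). Gabarapl2 stood at 0.373, 0.620 and 0.351. Both Bpgm and Mkrn1 were highest in the middle range beyond their counting intervals, and the outer ranges had overlapping intervals. On the CPM scale these genes went up, Bpgm from 874 to 5521 and 7683 and Mkrn1 from 784 to 5360 and 6549. Ubb went from 2465 to 10014 and 10975 CPM, and from 2.16 to 2.89 and 1.30 UMIs per cell. Of 23 genes for protein and organelle clearance 11 stood higher at 90% and over and 11 lower with no filter, against 62.8% lower over all genes. Of the 13 that could go either way 8 were at least 2-fold higher and 2 lower, while the summed list went from 12.7 to 11.1 and 4.69 UMIs per cell.

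Among other late genes, Xpo7, Tmcc2 and Ube2h had their highest means per cell in the middle range. No count over a list was made, and the summed late erythroid and clearance lists fell from range to range. Xpo7 had 73, 211 and 2 UMIs in the 3 ranges, and Tmcc2, a membrane protein of the endoplasmic reticulum, had 33, 122 and 1. Ube2h, a ubiquitin-conjugating enzyme of terminal erythroid cells, had 16, 107 and 19. In UMIs per cell Xpo7 stood at 1.43 (1.12 to 1.80), 1.95 (1.70 to 2.24) and 0.009, Tmcc2 at 0.647 (0.445 to 0.909), 1.13 (0.938 to 1.35) and 0.004, and Ube2h at 0.314 (0.179 to 0.509), 0.991 (0.812 to 1.20) and 0.082. The middle range was above both outer ones beyond the counting intervals for Tmcc2 and Ube2h, while the intervals of Xpo7 overlapped between the lower 2 ranges. At 90% and over, where Xpo7 and Tmcc2 had 2 and 1 UMIs, Bpgm and Mkrn1 had 210 and 179.

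**Figure D4:**
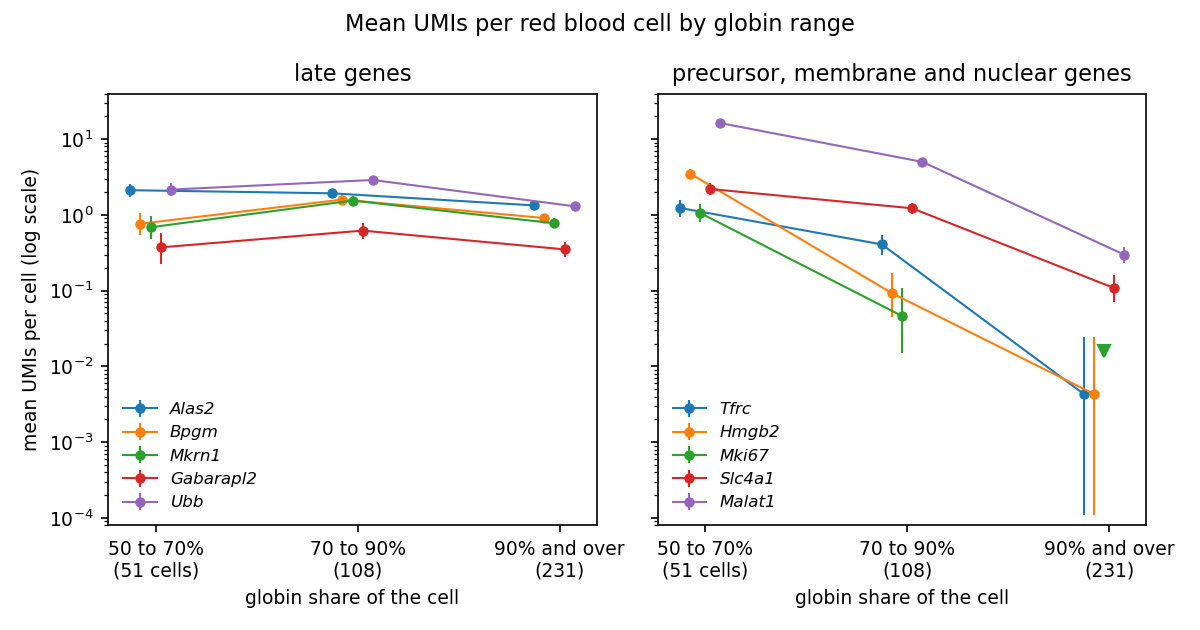
Mean UMIs per red blood cell (vertical axis, log scale, with 95% Poisson intervals) in the 3 globin ranges (horizontal axis), for late genes on the left and for precursor, membrane and nuclear genes on the right. The triangle marks the upper limit for Mki67, which had 0 UMIs at 90% globin and over, and Tfrc and Hmgb2 had 1 UMI in 231 cells there. The 5 late genes shown lie between 0.351 and 2.89 UMIs per cell, and other late genes such as Xpo7 and Tmcc2, not shown, fell to 0.009 and 0.004.

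Shares of cells with a UMI were also compared at an equal number of globin-free UMIs, after thinning to 100 of them per cell. This kept 51, 104 and 130 cells of the 3 ranges. Bpgm was then seen in 7.84% (2.18 to 18.9%), 51.0% and 53.1% of cells, against 35.3%, 67.6% and 51.5% without thinning. Alas2 was seen in 11 of 51 cells (21.6%, 11.3 to 35.3%), 52 of 104 and 70 of 130 (53.8%, 44.9 to 62.6%). Tfrc was seen in 7.84%, 5.77% and 0.769% of cells, against 37.3%, 18.5% and 0.433% without thinning. The share of cells with Alas2 thus differed between the lowest range and the other 2 by more than counting error only per 100 globin-free UMIs. Without thinning it was 70.6%, 79.6% and 66.2%. Globin UMIs per cell were close in the 3 ranges, so that thinning matched globin-free UMIs and not the depth of a cell.

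RNA that stays in the nucleus differed from gene to gene. Of 9 listed genes 4 stood higher than in the other barcodes with no filter and 5 lower. Between the outer ranges 5 stood higher at 90% and over, 3 lower and 1 equal, against 62.8% lower over all genes. Of 4 compared genes, all of which could go either way, Meg3 was lower than in the other barcodes (0.208-fold). The other 3, Malat1 among them, did not reach 2-fold in either direction. All 4 were below 1 on the scale of all UMIs. Malat1, a long noncoding RNA retained in nuclear speckles, had 830, 541 and 69 UMIs in the 3 ranges, or 16.3, 5.01 and 0.299 per cell, and stood at 18601, 17365 and 2524 CPM. Xist, which coats the inactive X chromosome, had 36, 5 and 8 UMIs and was lower at 90% and over than at 50 to 70% (0.363-fold, 0.146 to 0.794). Meg3 had 5, 5 and 12 UMIs and was higher at 90% and over (3.92-fold, 1.28 to 14.2), but it could pass the filter only by being so. Neat1 had 7, 20 and 7 UMIs (1.63-fold, 0.489 to 5.45). At least 1 Malat1 UMI was seen in 90.2%, 52.8% and 24.2% of cells. After thinning, the shares were 66.7%, 42.3% and 24.6%, against 62.4% of gated T cells. Over all 390 cells Malat1 stood at 13966 CPM against 10700 in the other barcodes (1.31-fold), a mean over ranges that differ. The median cell had 0 Malat1 UMIs. Whether Malat1 in cells of 90% globin and over was their own RNA or free RNA of the suspension was not tested.

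Mitochondrially encoded RNA, which reticulocytes lose with their mitochondria, made up 3.45% (3.34 to 3.56%) of globin-free UMIs against 2.07% in barcodes under 0.5% globin. It was 1.96% (1.83 to 2.09%) at 50 to 70% globin, 4.82% (4.58 to 5.06%) at 70 to 90% and 4.32% (4.09 to 4.57%) at 90% and over. Per cell the numbers were 17.2, 13.9 and 5.12 UMIs. With no filter 10 of 13 mitochondrial genes stood higher than in the other barcodes and 3 lower. Of the 12 that passed it, all of which could go either way, 1, mt-Co1 of cytochrome oxidase, was over 2-fold higher (2.19-fold). Of all 1110 compared genes that could go either way, 153 were at least 2-fold higher. All 12 mitochondrial genes were below 1 on the scale of all UMIs. Of 13 mitochondrial genes 11 stood higher at 90% and over than at 50 to 70% with no filter, against 37.2% over all genes. Of the 10 that could go either way 8 were at least 2-fold higher, against 109 of 447 over all compared genes. Ribosomal protein mRNA made up 8.08% (7.92 to 8.25%), against 14.5% under 0.5% globin, with 10.1%, 5.72% and 7.51% in the 3 ranges. Per cell it dropped from 88.2 UMIs to 16.5 and 8.89.

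UMIs assigned to loci that catch ribosomal RNA were the largest class outside globin at high globin share. Gm42418, at chr17:39846958-39848788 (mm10) and overlapping a ribosomal RNA unit, was the gene with the most UMIs outside globin, at 5370 (52080 CPM against 6560, 7.94-fold). Grouped with AY036118, Lars2, Cmss1 and Gphn, other loci where such reads are often counted, it made up 2.48%, 7.61% and 14.8% of globin-free UMIs in the 3 ranges, against 0.944% under 0.5% globin. In UMIs per cell the class was nearly level, at 21.7, 22.0 and 17.5, against 29.4 under 0.5% globin. Gm42418 alone stood at 15.2, 15.4 and 12.7 UMIs per cell. Sec61g (824 UMIs, 9.27-fold) and the histone variant gene H3f3a (614 UMIs, 6.22-fold) were also among the 20 genes with the most UMIs.

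**Figure D5:**
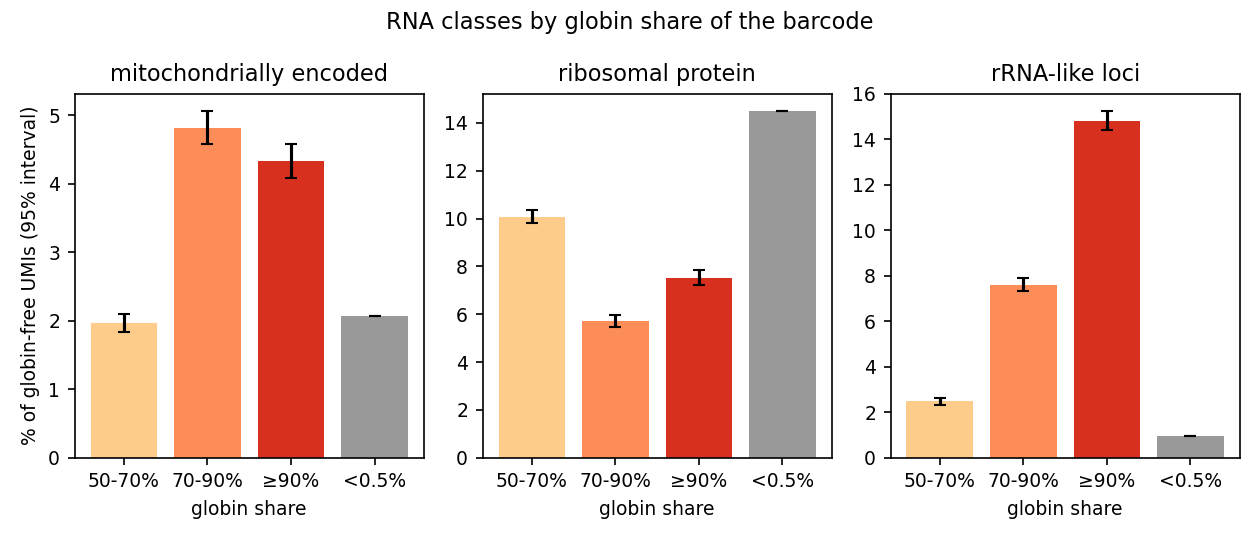
Share of globin-free UMIs (vertical axes, in percent, starting at 0, with exact 95% binomial intervals) from mitochondrially encoded genes, ribosomal protein genes and loci that catch ribosomal RNA, in the 3 globin ranges of red blood cells and, in grey, in the 9537 barcodes under 0.5% globin. The ribosomal RNA class goes from 2.48% to 14.8% across the ranges, and ribosomal protein mRNA is under the grey bar in all 3.

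RNA of other pancreatic cells was present throughout. The 8 listed genes of exocrine cells, led by Ctrb1, which encodes the digestive zymogen chymotrypsinogen B, made up 6.37% of globin-free UMIs. A red blood cell had a median of 9 such UMIs, against 13 in gated T cells, 14 in gated fibroblasts and 1224 in acinar droplets. Per range the mean was 53.7, 16.7 and 8.77 UMIs per cell, with 381 in a single cell of 8223 UMIs and 53.6% globin. A few cells carried the first of these means, since 5 cells gave 1680 of the 2741 UMIs at 50 to 70%, and the medians were 11, 11 and 8 UMIs per cell. The ratio of Ctrb1 to Clps, which encodes colipase, was 1.45 (1.35 to 1.54) in red blood cells, 1.49 in gated T cells, 1.42 in gated fibroblasts and 1.71 in acinar droplets. The ratio of Reg1 to Clps was 0.541 (0.497 to 0.590), against 0.532, 0.532 and 0.838. Summed over all red blood cells, both intervals held the values of T cells and fibroblasts and not that of acinar droplets. By range the ratio of Ctrb1 to Clps differed. It was 1.62 (1.46 to 1.80) at 50 to 70%, an interval that held the acinar and T cell values and not that of fibroblasts, 1.39 (1.23 to 1.57) at 70 to 90%, and 1.29 (1.14 to 1.45) at 90% and over, an interval that held the fibroblast value alone. The ratio of Reg1 to Clps was 0.569 (0.495 to 0.652), 0.507 (0.430 to 0.596) and 0.540 (0.463 to 0.629) in the 3 ranges, and each interval held the values of T cells and fibroblasts and not that of acinar droplets. The interval of Pnliprp1, a lipase-related gene, to Clps was 0.722 to 0.843 and held the values of T cells (0.733) and acinar droplets (0.819) but not that of fibroblasts (0.716). By range this ratio was 0.856 (0.758 to 0.966), 0.630 (0.541 to 0.733) and 0.828 (0.724 to 0.947). The first interval held the acinar value alone, the second those of T cells and fibroblasts, and the third those of T cells and acinar droplets. With no filter all 8 stood higher in red blood cells than in the other barcodes on the CPM scale. Try4 (2.04-fold) was the single exocrine gene of 7 past 2-fold, and all 7 were below 1 on the scale of all UMIs.

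Fibroblast RNA was low. All 9 fibroblast genes were at least 2-fold lower, of which 8 could have gone either way, and their UMIs summed to a median of 1 per red blood cell against 3 in gated T cells and 146 in gated fibroblasts. Col1a1, a chain of type I collagen, stood at 1872 CPM against 7935 and Col3a1 at 2822 against 15180. On the CPM scale 8 of the 9 stood higher at 90% globin and over than at 50 to 70% with no filter, against 37.2% over all genes. All 6 that could go either way were at least 2-fold higher, while the list went from 3.12 to 2.19 and 1.54 UMIs per cell. Summed over all red blood cells, the collagen chains were not in the proportions of fibroblasts. The ratio of Col1a2 to Col1a1 was 0.326 (0.242 to 0.436) in red blood cells, 0.875 in gated T cells and 0.960 in gated fibroblasts, and that of Col3a1 to Col1a1 was 1.51 (1.25 to 1.82), 1.81 and 1.91. By range the first ratio was 0.514 (0.279 to 0.916), 0.339 (0.193 to 0.571) and 0.247 (0.151 to 0.390). Each interval lay under the fibroblast value, and that at 50 to 70% held the T cell value. The second ratio was 1.41 (0.904 to 2.20), 1.68 (1.20 to 2.36) and 1.44 (1.11 to 1.89), and only the last interval left out the fibroblast value. The cause of this difference was not tested. Treating all Col1a1, Col1a2 and Col3a1 UMIs of red blood cells as free RNA, and subtracting the profile of the other barcodes at that scale, took away 15.6% of globin-free UMIs, or 41.3 per cell on average. That amount depends on the genes used for scaling. Exocrine genes made up 3.98% of globin-free UMIs in the other barcodes, and the same profile scaled on them would come to 160% of the globin-free UMIs of red blood cells. The part of free RNA in each single gene was not tested.

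Markers of other blood cells were seen in few red blood cells, but their summed lists were not all low on the CPM scale. The macrophage list had a UMI in 6 cells and stood at 107 CPM (53.3 to 191) against 142 in the other barcodes. The platelet list had a UMI in 7 cells and stood at 67.9 CPM (27.3 to 140) against 51.5. The neutrophil list had a UMI in 5 cells and stood at 2415 CPM against 511. Of the 10 macrophage genes 7 had 0 UMIs and of the 8 platelet genes 3 had 0, including the platelet chemokine gene Ppbp. None of the macrophage, platelet and endothelial genes had enough UMIs to compare. With no filter 2 of the 10 macrophage genes stood higher than in the other barcodes and 8 lower. This is near the share over all genes, of which 83.5% stood lower. Of the 8 platelet genes 3 stood higher and 3 lower, and all 6 endothelial genes stood lower. Of the T and B cell genes 4 stood higher and 5 lower, and of the 10 neutrophil genes 5 higher and 5 lower. The 9 T and B cell genes had 51 UMIs in 20 red blood cells, with at most 11 in a cell, and stood at 495 CPM (368 to 650) against 585 in the other barcodes and 4221 in gated T cells. None of the 9 had 0 UMIs. Ptprc, the leukocyte surface protein CD45 and the most abundant of them, had 13 UMIs (0.714-fold). The part of these cells in the other results was not tested, apart from the cycling genes above. Of the neutrophil genes, Csf3r, Cxcr2, Ly6g and Ltf had 0 UMIs. S100a8 and S100a9, which encode calprotectin, had 209 UMIs, of which 206 were in 1 cell of 2526 UMIs and 69.5% globin, with 19 Camp UMIs and 1 Alas2 UMI. S100a8, S100a9 and Camp, the 3 neutrophil genes that could be compared, were 5.08-, 5.49- and 2.62-fold higher over all 390 cells with that cell included, and below 1 on the scale of all UMIs. Without that cell 387 genes were higher and 502 lower of those compared.

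Just inside the limit of 50%, the 10 nearest cells had 50.3% to 53.6% globin, 40 Alas2 UMIs, 40 Slc4a1 UMIs and 2.6 UMIs of Col1a1, Col1a2 and Col3a1 per cell. The 10 nearest barcodes outside had 45.7% to 49.5% globin, 20 Alas2 UMIs, 23 Slc4a1 UMIs and 15.1 collagen UMIs per barcode, of which 1 barcode gave 120 of 151. The 2 deepest cells inside (5022 and 8223 UMIs) gave 34 of the 40 Alas2 and 32 of the 40 Slc4a1 UMIs, and the 2 deepest outside (5247 and 6888 UMIs) 12 of 20 and 20 of 23. At least 1 Alas2 UMI was seen in 7 of the 10 inside and 8 of the 10 outside. Cells of low globin share were also the deeper ones. Of the cells under 70% globin, 4 fell in the shallowest tertile of the red blood cells by UMI number, 11 in the middle tertile and 36 in the deepest tertile, and Malat1 stood at 5517, 7083 and 18405 CPM in these tertiles. Depth and globin range therefore cannot be told apart in full, and 222 of the 390 cells had under 1500 UMIs.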

How the data were processed

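The authors deposited raw UMI counts per gene and barcode, made with Cell Ranger 7.1.0 on mm10 per the submitters' processing notes. Counts were summed over cells and given per 1000000 UMIs other than the 4 globins (globin-free CPM), with exact Poisson, Clopper-Pearson and conditional binomial 95% intervals (scipy 1.17.1). A gene was called higher or lower at a fold of at least 2, at a mean of at least 100 CPM (200 between globin ranges). Named genes were the globins, the members of 22 gene lists, the 20 genes with most UMIs and the 25 largest and 15 smallest folds. Members and lists were chosen with earlier results of these data known. Of 289 listed symbols 282 were in the table. Some of them count in the lists but are not reported here by name. T cells had at least 3 UMIs of Cd3 or T cell receptor genes, fibroblasts at least 20 collagen UMIs and no Ptprc, and acinar droplets at least 20% zymogen UMIs. Doublets (Scrublet in scanpy 1.11.5) and free RNA were left in and removed as alternatives. The calculation of folds and intervals was tested on simulated data. Gene positions are from GENCODE M21, start regions from RefSeq.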

Additional observations from a re-analysis of the deposited data

Results flagged for a closer look

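Barcodes outside the retained or chosen sets also carried globin. Among the barcodes left out for low depth, 74 with at most 800 UMIs had at least 50% globin, and their summed share was 89.8%. Their alpha to beta ratio was 0.374 (0.366 to 0.382), against 0.468 in the 390 red blood cells, and the ratio of Hbb-bs to Hbb-bt was 8.48 (8.18 to 8.79), against 4.51. Loci that catch ribosomal RNA made up 16.8% of their globin-free UMIs and mitochondrial genes 8.91%. Alas2 had 42 UMIs there and Slc4a1 1. Whether these are red cells with little RNA or droplets with free RNA was not tested.

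A further 169 retained barcodes had 5 to 50% globin, at a median of 3033 UMIs. They held 21.0% of the globin UMIs, with 194 Alas2 and 204 Slc4a1 UMIs. They also held the fibroblast list at 3.14% of globin-free UMIs, against 0.728% in red blood cells and 4.29% under 0.5% globin. Scrublet called 72 of the 169 doublets (42.6%), against 4.96% of all retained barcodes and 1 of the 390 red blood cells. The 9537 barcodes under 0.5% globin had a mean of 1.61 globin UMIs each.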

How the results depend on the processing

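The share of red blood cells was 4.28% with no lower UMI limit and 2.13% with a limit of 1500, and 4.49%, 3.35% and 2.28% at a globin share of at least 30%, 70% and 90%. In the same order the alpha to beta ratio was 0.460, 0.528, 0.460, 0.472 and 0.477, and the mitochondrial share was 3.71%, 2.73%, 2.70%, 4.59% and 4.32%. The median of per-cell ratios of alpha to beta was 0.412. The mitochondrial share was 3.21% with a mitochondrial limit of 5%, 0.554% of all UMIs, 2.95% as a median over cells and 3.67% after subtraction of free RNA. Malat1 stood at 17148 CPM with the lower limit of 1500, at 11623, 10429 and 2524 at 30%, 70% and 90% globin, at 2243 on the scale of all UMIs and at 0 as a median over cells. Ribosomal protein mRNA stood at 8.54%, 11.9%, 6.56%, 7.51%, 1.30% and 6.87% in that order, and at 6.61% after subtraction.

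The 389 higher genes became 258 and 228 at a globin share of at least 30% and 90%, 601, 221 and 1990 with a mean of at least 50 CPM, of at least 200 CPM and with no filter beyond 1 UMI. On the scale of all UMIs they became 37, with 733 lower, where the filter was applied on that scale and left 815 of 1524 genes, and 142, with 1209 lower, for the same 1524 genes, an alternative chosen after seeing the data. The 501 lower genes became 237 at 30% globin, 1104, 214 and 2824 with these filters, and 206 at a fold of at least 4. Against the 9537 barcodes under 0.5% globin, an alternative chosen after seeing the data, 389 were higher and 505 lower. On the scale of all UMIs, Ubb (0.912-fold), Fth1 (0.502-fold) and mt-Co1 (0.354-fold) turned from higher to lower. Of 23 erythroid genes followed, 19 were at least 2-fold higher under each of 18 alternatives. In this count a gene without a UMI in red blood cells entered at the fold that 3 UMIs would give. Rhag had no UMI at a globin limit of 90%, so that its fold there is an upper limit and not a measured difference. Tfrc (1.51-fold) did not reach 2-fold at a globin limit of 90%, where the red blood cells under that limit counted among the other barcodes. No paired analysis was possible because there is 1 library. With a median of 139 globin-free UMIs per cell, a gene absent from a cell says little at this depth.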
